A study of Caenorhabditis elegans with 2 samples.

Results

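The ceh genes are named after the C. elegans homeobox, the DNA segment that encodes a homeodomain. Under study were the 59 protein-coding genes whose Ensembl WBcel235 name starts with ceh-, of 19985 protein-coding genes in all, after the NK-2 class genes ceh-22, ceh-24, ceh-27 and ceh-28 were left out by name. The rule uses names and no measured value, but the set was chosen for study with earlier results of these data known. Binding of CEH-24, itself an NK-2 class homeodomain protein, had been mapped by ChIP-seq, the sequencing of DNA recovered with a protein by immunoprecipitation. The worms were strain OP673, which carries the transgene wgIs673 (CEH-24 with a C-terminal GFP and FLAG tag) in an unc-119 (tm4063) mutant background, and DNA was recovered through GFP. Both biological replicates were whole late embryos of mixed sex, 5 h after synchronization by bleaching. They form 1 group with no second condition, so the values show where the tagged protein was recovered in all tissues together, and no change was measured. The sources used here state neither the promoter of the transgene nor whether the endogenous ceh-24 is intact.

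Homeodomain proteins are transcription factors that bind short DNA words, many of them built around TAAT, through a helix of the homeodomain. In the nematode they specify regions of the body, tissues and single neuron types, and they often act in cascades in which one homeobox gene controls another. NK-2 class homeodomains differ from most others in preferring a site with the core AAGTG. CEH-24 is known from sublateral motor neurons, a pharyngeal muscle and the vulval and uterine muscles. RefSeq gives a product name with the word homeobox for 55 of the 59 members. Of the other 4, ceh-48 and ceh-49 have a product named as a one cut protein, after a class of homeodomain proteins, and ceh-83 and ceh-89 one named as a homeodomain-only protein. The rule also keeps ceh-51, whose product has been described elsewhere as NK-2 class, so the set is defined by its names rather than strictly by class.

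For each gene, every summit inside the gene or within 2000 bp of one of its transcript starts was counted, and the peak with the highest deposited signal value was taken. This was done in the list pooled over both replicates and in the relaxed list of each replicate. These relaxed lists hold 30000 peaks in the pooled list, 30000 in replicate 1 and 28119 in replicate 2, and by the authors' description they include background. Of these peaks, 420, 228 and 729 had a q-value at or under 0.05. The replicates are thus unequal in how much passed the threshold, and the depth behind either is unknown. The signal scale differs between lists, so values are ranked within a list only.

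No ceh gene outside the NK-2 class held a peak that passed a threshold. None of the 59 had 1 of the 276 optimal peaks, those kept by the authors after comparing replicates, and 1.93% of all protein-coding genes did. None had a pooled peak with a q-value of 0.05 or less, against 2.81% of all genes. The same held in replicate 1, against 1.54%, and in replicate 2, against 4.14%. A count of 0 in 59 allows a share of up to 5.08% (3 genes of the total), which lies above each of these background shares. Applied to 59 genes, those shares come to 1.14 genes for the optimal list and 1.66, 0.909 and 2.44 genes for the pooled, replicate 1 and replicate 2 lists. A deficit was therefore not detectable with a set of this size.

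In the pooled list the share of genes with a peak of any strength was about that elsewhere, with the length searched per gene not matched. That length was greater at the members (median 4875 bp against 4181 bp), which held fewer pooled peaks per 10 kb (2.45 against 2.97). Of the 59 members, 40 had a pooled peak (67.8%, Wilson 95% interval 55.1 to 78.3), against 70.0% of all protein-coding genes. In replicate 1 it was 35 (59.3%, 46.6 to 70.9, against 72.1%) and in replicate 2 it was 44 (74.6%, 62.2 to 83.9, against 69.9%). The replicates thus lay on opposite sides of their background shares. Only the replicate 1 interval leaves out its background share, and the lower count there was not seen in replicate 2. With genes ranked by pooled signal and those without a peak tied at the bottom, the members' median percentile was 53.5, where all genes have 50. In the replicates alone it was 45.8 and 50.1, so the side of 50 on which it lay turned with the list. Their quartiles were 15, the value of a gene with no peak, and 66.8. Among the 40 members with a pooled peak, signal values ran from 27.9 to 76.0 with a median of 37.9, and the median over all genes with a peak was 40.4. The highest value, 76.0, was 74.3% of the lowest value in the optimal list, 102.

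**Figure D1:**
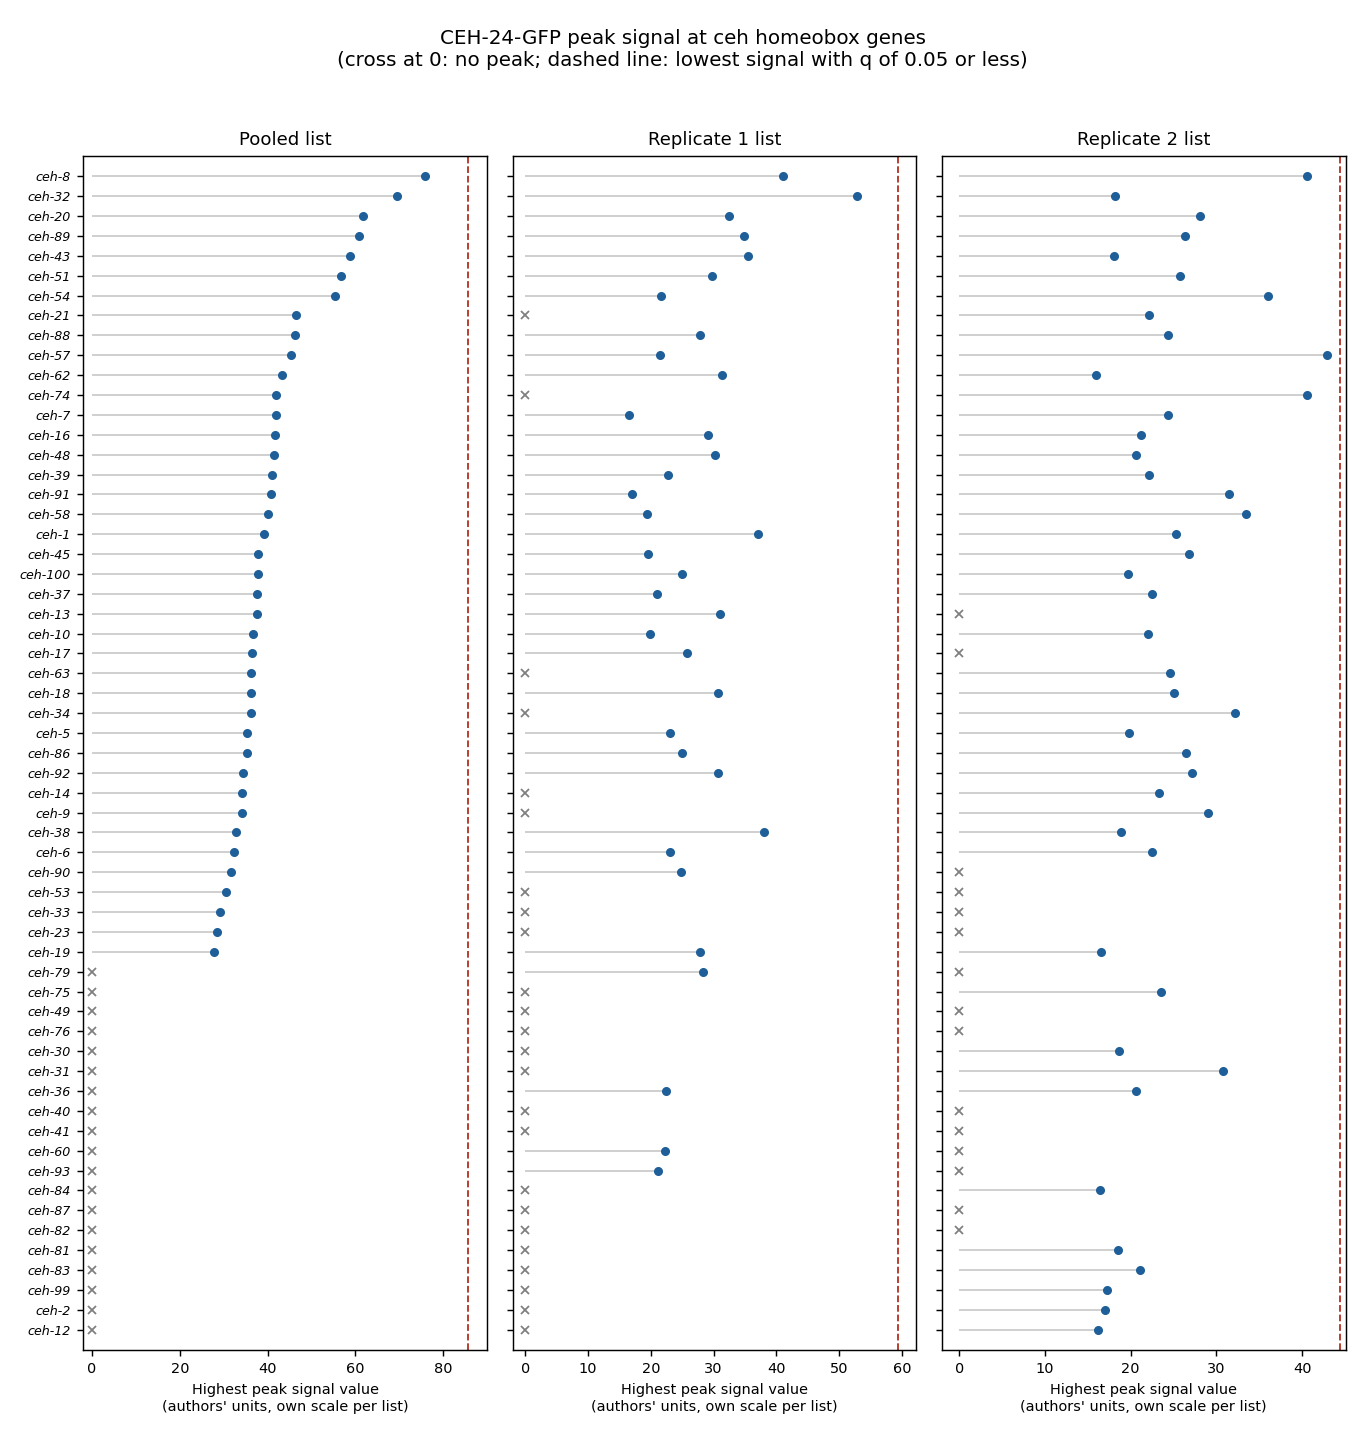
Highest peak signal value at each of the 59 ceh genes (rows, ordered by the pooled value) in the pooled list and in each replicate's list, in the authors' units on a separate scale per list. Crosses at 0 mark genes with no peak, and the dashed line marks the lowest signal among peaks with a q-value of 0.05 or less (85.7, 59.3 and 44.4), which no gene reaches.

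Sequence at 4 of the highest member peaks is given to show what these regions hold. Each is the plus strand of WBcel235 (the ce11 build) from the RefSeq genome within 100 bp of the summit, and the one at ceh-20 was shortened to end before the transcript. Capitals mark the homeodomain core TAAT, the NK-2 core AAGTG and their reverse complements, ATTA and CACTT. They lie at chrV:11706454-11706654 for ceh-32, chrIII:6979725-6979883 for ceh-20, chrIII:4449763-4449963 for ceh-43 and chrV:18874720-18874920 for ceh-51.
ceh-32: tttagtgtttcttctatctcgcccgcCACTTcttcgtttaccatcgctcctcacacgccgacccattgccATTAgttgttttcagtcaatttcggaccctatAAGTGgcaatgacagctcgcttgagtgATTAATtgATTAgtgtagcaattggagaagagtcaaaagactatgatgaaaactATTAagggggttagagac
ceh-20: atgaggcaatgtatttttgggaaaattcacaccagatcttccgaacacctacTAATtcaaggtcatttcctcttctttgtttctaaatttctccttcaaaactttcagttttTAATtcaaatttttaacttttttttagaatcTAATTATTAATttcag
ceh-43: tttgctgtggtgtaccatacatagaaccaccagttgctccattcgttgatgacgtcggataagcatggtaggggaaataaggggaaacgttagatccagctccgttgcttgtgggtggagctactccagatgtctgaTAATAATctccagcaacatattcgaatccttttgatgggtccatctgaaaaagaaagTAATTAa
ceh-51: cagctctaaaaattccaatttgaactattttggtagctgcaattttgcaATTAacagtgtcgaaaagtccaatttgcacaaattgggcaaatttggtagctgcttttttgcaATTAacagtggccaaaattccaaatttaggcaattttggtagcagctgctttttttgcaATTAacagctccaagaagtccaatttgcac
The ceh-32 window holds 5 matches to TAAT and 2 to AAGTG. The windows of ceh-20, ceh-43 and ceh-51 hold 6, 4 and 3 matches to TAAT and none to AAGTG. In the ceh-51 window a run of 15 bases, ttttgcaATTAacag, occurs 3 times, at steps of 63 and 59 bp. Of the 32-mers in that window, 6.47% occur more than once in the nuclear genome.

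The full NK-2 class site TNAAGTG was found in 3 of the 40 member peak windows (7.50%), against 9.08% of all 30000 pooled peaks and 6.16% of the optimal peaks. The matches are shown with 10 bases on each side, read on the strand of the site, with the site in capitals. They lie at chrIV:6815581-6815607 on the plus strand for ceh-48, chrII:10369776-10369802 on the minus strand for ceh-58 and chrX:14207298-14207324 on the plus strand for ceh-37.
ceh-48: gtggtattaaTAAAGTGtgcttgatta
ceh-58: ttccaactaaTTAAGTGcctcggtctc
ceh-37: aattttttttTAAAGTGtgcaaatgtg
The centre of each site lay 97, 46 and 66 bp from the summit, in that order. None of the 7 members with the highest pooled signals held this site. The shorter core AAGTG was present in 18 of 40 windows (45.0%, against 36% of all pooled peaks and 41.7% of optimal peaks). The homeodomain core TAAT was in 39 of 40 (97.5%), against 84.5% of pooled and 68.1% of optimal peaks, with ceh-9 the exception. The B box of tRNA genes, searched as GNTCNANNC, was in 8 of 40 (20%), against 16.6% of pooled and 49.6% of optimal peaks. All motifs were searched on both strands in windows of 201 bp, and AAGTG lies within TNAAGTG. The median GC content was 36.1% in the member windows and 35.3% over all pooled peaks. It was not computed for the optimal peaks, so the shares there are not matched for base content, and no difference in shares was tested. These matches describe letters and are not evidence of binding at them. No tRNA, snoRNA, snRNA or rRNA gene lay within 250 bp of any of the 40 summits, against 2.84% over all genes with a pooled peak. A count of 0 in 40 allows a share of up to 7.50%, so a difference was not detectable.

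The paired-like (PRD) members include regulators of sensory and interneuron identity. The highest value of the whole set was at ceh-8 (WBGene00000433, I 8245505 to 8250948), which encodes a homeodomain protein of the Rax type. Its peak had a pooled signal of 76.0 (rank 641, q = 0.101), with 41.0 in replicate 1 (rank 1068) and 40.5 in replicate 2 (rank 1152). It is the one member among the 3 highest by rank in both replicates. The summit (I 8245756) lay in the 3′ UTR of ceh-8, 1211 bp from its nearest transcript start. It was nearer the start of the collagen gene col-63, 793 bp upstream of it. The other members given this class here were far lower in the pooled list. The goosecoid-type gene ceh-45 had 37.9 and the Otx-type gene ceh-37, which acts in sensory neurons, had 37.7. The values were 36.7 at ceh-10, which specifies the interneuron AIY together with ttx-3, and 36.4 at ceh-17, a Phox2-type gene required in SIA sublateral and ALA neurons. ceh-36, the second Otx-type gene, which specifies AWC and ASE sensory neurons, had no pooled peak but one in each replicate (22.5 and 20.6). At ceh-17 replicate 1 had 25.8 and replicate 2 no peak.

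The members of the sine oculis class, ceh-32, ceh-33 and ceh-34, include genes of the head and the pharynx. ceh-32 (WBGene00000453, V 11701764 to 11705400), a gene needed for head morphogenesis, had the second highest pooled signal, 69.5 (rank 931, q = 0.157). Its summit (V 11706554) lay 1154 bp upstream of the start, with no other protein-coding start nearer than 5995 bp. Replicate 1 had 52.9 there, rank 332 and the highest member value of that list (q = 0.0860). Replicate 2 had 18.2 at the same place, rank 21117 (q = 0.886). The replicates therefore disagree on this peak, which was near the top of the list in replicate 1 and in its lower part in replicate 2. ceh-34, which specifies pharyngeal neurons, had 36.3 in the pooled list, no peak in replicate 1 and 32.2 in replicate 2. Its neighbour ceh-33 had 29.1 in the pooled list and no peak in either replicate.

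The TALE members ceh-20, ceh-40 and ceh-60 encode proteins of the Pbx and Extradenticle kind, some of which act as partners of Hox proteins. Only ceh-20 (WBGene00000443, III 6979884 to 6981785), which works with Hox genes in the postembryonic mesoderm and elsewhere, had a pooled peak. It had 61.7 (rank 1568, q = 0.310), with 32.5 in replicate 1 and 28.1 in replicate 2, and the summit lay 59 bp upstream of the start. Among the 7 highest members this was the summit closest to a start. ceh-60, which controls yolk protein genes in the intestine, had 22.3 in replicate 1 and no peak in the other lists, although its window of 9551 bp is among the longer ones. ceh-40 had no peak in any list.

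The members given the ANTP class here, outside the Hox cluster, were ceh-1, ceh-2, ceh-5, ceh-12, ceh-16, ceh-19, ceh-30, ceh-31, ceh-43 and ceh-51. Of these 10 genes, 6 had a peak in the pooled list, 6 in replicate 1 and all 10 in replicate 2. The shares of all protein-coding genes were 70.0%, 72.1% and 69.9%, and 10 genes are too few to read a difference. ceh-43 (WBGene00000463, III 4446638 to 4449943), the Distal-less-type gene of the anterior epidermis and dopaminergic neurons, had the highest value, 58.8 (rank 1949, q = 0.366). Its summit lay 80 bp past the start, in a coding exon, with 35.5 in replicate 1 and 18.1 in replicate 2. ceh-51 (WBGene00013583, V 18874133 to 18875982), which specifies mesoderm from the MS blastomere together with tbx-35, had 56.8 (rank 2294, q = 0.420), with 29.8 and 25.7 in the replicates. Its summit lay in an intron of ceh-51, 687 bp past the start, and within the larger gene emb-4. The engrailed-type gene ceh-16, which acts in epidermal seam cells, had 41.8, with 29.1 and 21.2. The values were 39.2 at ceh-1, 35.3 at ceh-5 and 27.9 at ceh-19, a gene of the MC pharyngeal neurons whose summit lay 145 bp upstream of the start of the Argonaute gene csr-1. ceh-2, of the M3 pharyngeal neuron, ceh-12, an HB9-type gene of VB motor neurons, and the Bar-type pair ceh-30 and ceh-31 were without a pooled peak. In replicate 2 these 4 genes had 17.0, 16.2, 18.6 and 30.8. The Hox gene ceh-13, the labial-type gene of the anterior embryo, had 37.6 in the pooled list, 31.0 in replicate 1 and no peak in replicate 2, at a summit in a coding exon.

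The CUT members ceh-21, ceh-38, ceh-39, ceh-41, ceh-48 and ceh-49 are ONECUT genes, some of which are expressed throughout the nervous system. The highest was ceh-21, with 46.5 in the pooled list, no peak in replicate 1 and 22.1 in replicate 2. Its summit was 4 bp upstream of the start of T26C11.9, which lies between ceh-21 and ceh-39. In replicate 2 a single peak (X 1853897) was the highest of both ceh-21 and ceh-39, so these genes share a value there. ceh-39, an X signal element that represses the sex switch gene xol-1, had 41.1 in the pooled list and 22.7 in replicate 1. ceh-48 had 41.4, with a summit in its 3′ UTR, and ceh-38 had 32.9, also in the 3′ UTR and nearer the start of tra-2. At that pooled peak ceh-38 had 29.6 in replicate 1 and 18.1 in replicate 2. Its highest replicate 1 peak, elsewhere, stood next among the members after ceh-32 and ceh-8, at 38.1 (rank 1592). The highest replicate 2 peak of ceh-38 had 18.9 and did not overlap that one. ceh-41 and ceh-49 had no peak in any list. Among the POU genes, ceh-18, which acts in gonadal sheath cells, had 36.3 and ceh-6, needed in the excretory cell, had 32.3. Both had a peak in each replicate, though not always at the pooled peak. At that of ceh-18 replicate 1 had 30.7 and no replicate 2 peak overlapped. At that of ceh-6 the replicates had 19.2 and 22.5. The LIM gene ceh-14, which acts in sensory neurons and interneurons, had 34.2 in the pooled list and 23.3 in replicate 2.

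The other 27 members were given no class here, so the class counts above cover the classed genes alone. Of the 27, 17 had a pooled peak, where the share of all protein-coding genes was 70.0%. The highest was ceh-89 (WBGene00009231, X 14141946 to 14144889) with 60.8 (rank 1671, q = 0.330), 34.9 in replicate 1 and 26.3 in replicate 2. That summit lay in a coding exon, 1818 bp past the start. ceh-54 (WBGene00020485, X 6191605 to 6194241) had 55.3, with a summit in an intron 183 bp past the start. At that pooled peak the replicates ranked the opposite way to those at ceh-32, with 21.4 in replicate 1 (rank 16585) and 36 in replicate 2 (rank 2076). A separate replicate 1 peak of the gene had 21.7 (rank 15853), its highest there. Of the 32-mers in the ceh-54 window, 9.41% were repeated in the genome, the largest share among the members, and in 36 of 40 windows none was. Below the 7 highest members the next pooled value was 46.5, at ceh-21, and the values below it followed in small steps. Of the members without a class, ceh-88 had 46.2, ceh-62 43.3, ceh-74 42.0, ceh-7 41.9, ceh-91 40.8, ceh-58 40.2 and ceh-100 37.9 in the pooled list. The pooled values of ceh-63, ceh-86, ceh-92, ceh-9, ceh-90, ceh-53 and ceh-23 ranged from 28.4 to 36.3. The highest member of replicate 2 was ceh-57 (WBGene00007416, II 10363584 to 10367296), with 42.9 (rank 867, q = 0.0641) at its 5′ UTR, where no replicate 1 peak overlapped the pooled peak of 45.4. The next in replicate 2 were ceh-74 (40.6, rank 1132, no peak in replicate 1) and ceh-8. The neighbours ceh-57 and ceh-58 also shared a pooled peak of 37.0, which was the highest of neither. In the cluster of ceh-81, ceh-82 and ceh-83 on chromosome II no gene had a pooled peak, and nor did ceh-84, ceh-87, ceh-99, ceh-75, ceh-76, ceh-79 or ceh-93. Of these, ceh-79 (28.3) and ceh-93 (21.2) had a peak in replicate 1 alone. In replicate 2 alone, ceh-75 had 23.5, ceh-83 21.1, ceh-81 18.5, ceh-99 17.2 and ceh-84 16.4. No list held a peak at ceh-76, ceh-82 or ceh-87.

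The replicates shared little order among these genes. Both had a peak at 29 of 59 members (49.2%, against 55.2% of all genes), replicate 1 alone at 6 and replicate 2 alone at 15, and 9 had none in either. The highest peaks of the replicates overlapped by 1 bp or more at 12 of the 29 (41.4%), against 34.6% of all genes with a peak in both. These 12 included ceh-8, ceh-32, ceh-20, ceh-89, ceh-43 and ceh-51, which are the 6 members with the highest pooled signals. The pooled list is made from the same 2 replicates, so this overlap is not independent of the pooled signal. Across the 29 genes the signals had a Spearman's rho of -0.27, and on the log2 scale a Pearson's r of -0.26. Across the 11026 protein-coding genes with a peak in both, the values were 0.31 and 0.50. These coefficients describe genes that hold a peak in both lists, and pair the highest peak of each replicate at a gene. Those peaks overlapped at 12 of the 29 members and at 34.6% of all such genes, so most pairs compare different places. The lists share a control, and the range of values at the members is narrow, so the coefficients are given as a description without a p-value. Of the 40 pooled peaks, 17 overlapped a peak in both replicates (42.5%, against 46.4% over the 13984 genes with a pooled peak). A further 4 overlapped none (10.0%, against 5.94%), those at ceh-14, ceh-53, ceh-33 and ceh-23.

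**Figure D2:**
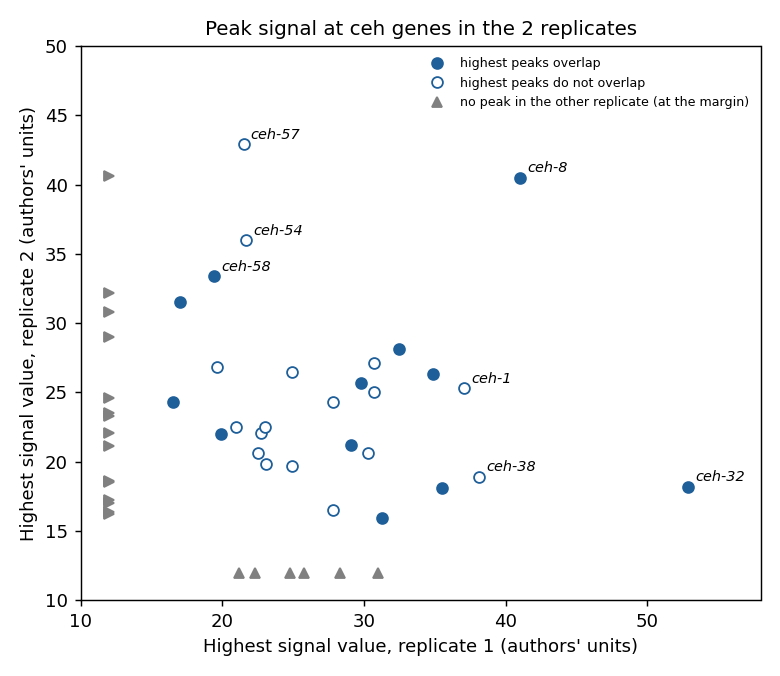
Highest signal value at each ceh gene in replicate 1 (x axis) and replicate 2 (y axis), in the authors' units. Filled points are genes whose highest peaks overlap between replicates, open points those whose highest peaks do not, and triangles at the margins genes with a peak in 1 replicate alone. The axes have separate scales, and ceh-8 alone is among the 3 highest genes on both (41.0 and 40.5), while ceh-32 and ceh-57 are high in 1 replicate each.

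The position of the peaks followed that of peaks at other genes in most respects. Of the 40 highest pooled peaks, 19 lay upstream of the gene (47.5%, against 46.8% over all genes with a peak) and 11 in introns (27.5% against 24.5%). A further 4 lay in coding exons (10.0% against 12.9%), 2 in a 5′ UTR (5.00% against 1.60%), 3 in a 3′ UTR (7.50% against 2.92%) and 1 downstream (2.50% against 10.9%). The counts in the last 3 places are too small to be read as a difference. Summits lay at a median of 790.0 bp from the gene's nearest start, against 968 bp over all genes, and 23 of 40 within 1000 bp (57.5% against 51.4%). At 8 genes the start of another gene was nearer, namely at ceh-8, ceh-21, ceh-7, ceh-48, ceh-100, ceh-34, ceh-38 and ceh-19 (20%, against 32.1% over all genes with a peak). The summit lay inside another protein-coding gene at 6 of the 40 (15%, against 21.0%), which were ceh-51, ceh-74, ceh-7, ceh-91, ceh-10 and ceh-5.

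**Figure D3:**
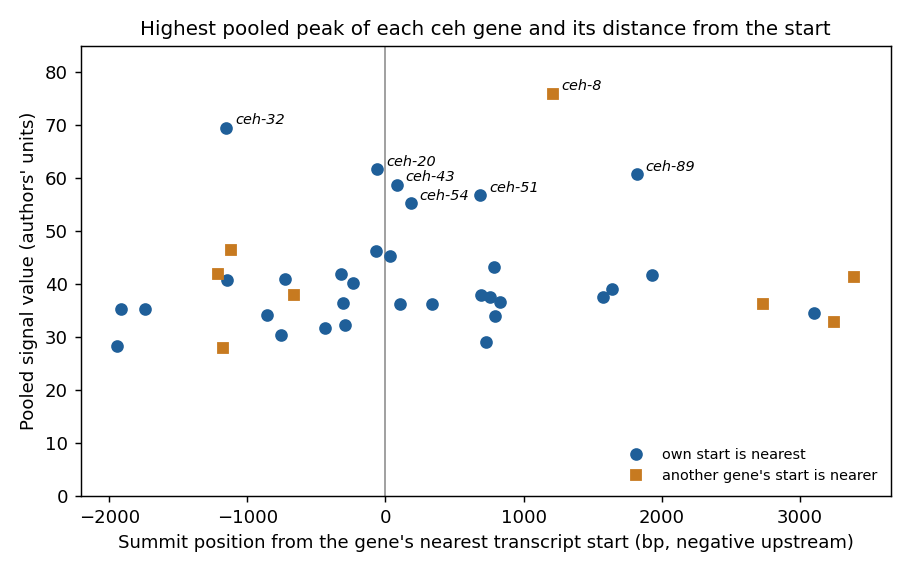
Pooled signal value of the highest peak of each of the 40 ceh genes with a pooled peak (y axis, authors' units) against the distance of its summit from the gene's nearest transcript start (x axis, bp, negative upstream). Squares mark the 8 genes at which another gene's start is nearer, and the 7 genes above 50 lie at distances from -1154 to 1818 bp with no common position.

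In the pooled list and in replicate 1, genes with a longer searched window more often had a peak, and in replicate 2 the members did not keep this order. The window ran from 4001 to 23503 bp per member, with a median of 4875 bp, against 4181 bp over all genes. Members with a window of 4001 bp had a pooled peak in 12 of 20 cases (60.0% against 59.9% of all genes of that length). With 4002 to 6000 bp it was 17 of 25 (68.0% against 70.7%), and with over 6000 bp 11 of 14 (78.6% against 87.8%). In replicate 1 the share was below that of all genes in each class, at 40.0%, 68.0% and 71.4% against 62.6%, 72.4% and 89.4%. In replicate 2 the shares were 60.0%, 84.0% and 78.6% against 60.3%, 69.0% and 88.9%, so the members' middle class was the highest. Per 10 kb of window the members held 2.45 pooled peaks, against 2.97 over all genes, with 2.39 against 2.97 in replicate 1 and 2.42 against 2.85 in replicate 2. The density was thus lower in all 3 lists, which are not independent of each other, and no test of this difference was made. The longest window, that of ceh-100, held 4 pooled peaks, and ceh-1 and ceh-37 held 5 each.

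**Figure D4:**
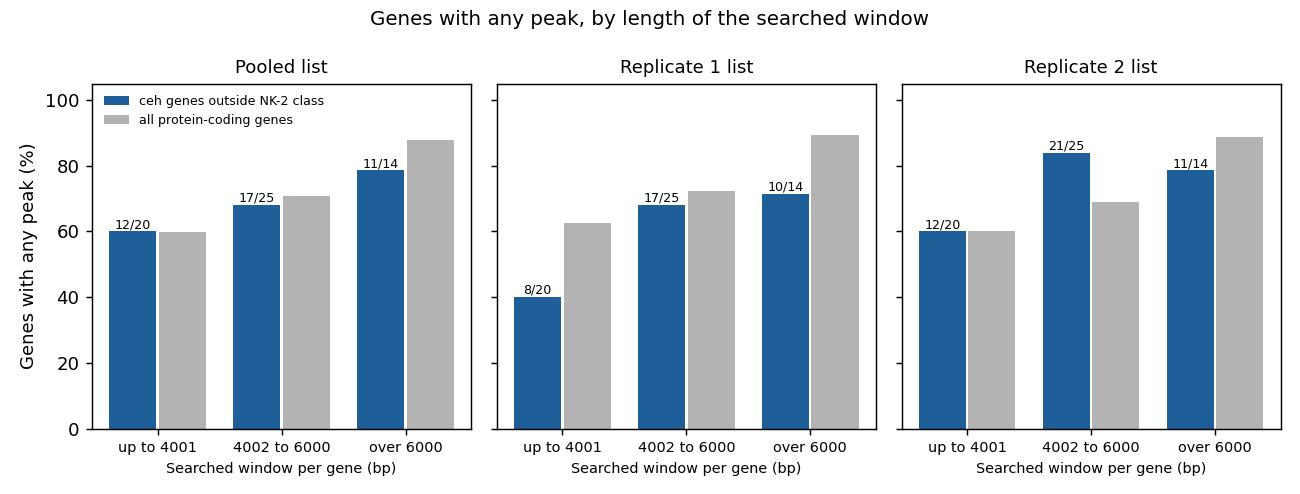
Share of genes with any peak (y axis, percent) in 3 classes of searched window length (x axis, bp), for ceh genes (blue, with the count of genes with a peak over the number of genes) and all protein-coding genes (grey), in each list. In the pooled list the shares rise with length in both sets, from 60.0% to 78.6% at the ceh genes and from 59.9% to 87.8% over all genes.

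Homeobox genes with other names were set beside the ceh genes from a list of 37 symbols, without a stated rule of selection. Of these, 33 (89.2%) had a pooled peak, against 70.0% of all protein-coding genes. In replicate 1 it was 34 (91.9% against 72.1%) and in replicate 2 it was 32 (86.5% against 69.9%). Against 50 over all genes, their median percentile in the pooled list was 64.0. Their windows are longer, with a median of 6889 bp, and they held 4.16 pooled peaks per 10 kb, against 2.97 over all genes. Of all protein-coding genes with a window over 6000 bp, 87.8% had a pooled peak, so the 70.0% is not matched for length. None had an optimal peak, against 1.93% of all genes, and a count of 0 in 37 allows a share of up to 8.11%. One, unc-62, which encodes the Meis-type partner of CEH-20, had a pooled peak with a q-value of 0.05 or less (signal 86.9, q = 0.0477). That is 2.70% of the list, about the 2.81% of all genes. The unc-62 window of 15989 bp is far longer than the members' median of 4875 bp. Its replicate values of 51.7 and 43.6 lie below the lowest signals with such a q-value in those lists, 59.3 and 44.4. In replicate 2 another gene of the list, dve-1, passed with 49.3, and its pooled signal was 55.1 (q = 0.452). That again is 2.70% of the list, against 4.14% of all genes in replicate 2. Of the NK-2 class genes, ceh-24 had 52.3, ceh-27 30.7 and ceh-22 28.0 in the pooled list, and ceh-28 had no peak. These values lie within the range of the other ceh genes, and no difference between the sets was tested.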

How the data were processed

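The authors deposited peak lists of 2 replicates, of both pooled, and of the optimal peaks after the irreproducible discovery rate (IDR) procedure, each on ce10 and ce11. The ce11 lists were used, and the other build was not. Per the deposited file descriptions, the relaxed lists were made from alignments with the same control, and the optimal list from the relaxed lists. For the aligner, the caller and the IDR threshold, names and settings were not given in the sources used here. Peaks carry the authors' signal value and −log10 q-value, as deposited, which serve to order peaks inside each list only. Depth is unknown, and intervals and limits cover counting error only, over genes.

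Genes come from Ensembl release 115 (WBcel235), whose chromosome lengths hold every peak on the 6 nuclear chromosomes. With pandas 2.3.3 and numpy 2.4.6 under Python 3.11.15, peaks were assigned by summit, inside the gene or within 2000 bp of any transcript start, and 1 peak can count for several genes. The assignment was tested on simulated data. Intervals were computed with scipy 1.17.1 and plots drawn with matplotlib 3.10.9. No p-value was computed, because there is 1 group and the design allows no test over samples. The members and lists were chosen with earlier results of these data known. Named genes were the 25 members with the highest pooled signal, any with a peak past a threshold, ceh-51 and up to 5 without a pooled peak; other members are named to account for the set, after their values were seen. Alternatives were other windows, overlap in place of the summit, stricter thresholds and each replicate alone.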

Additional observations from a re-analysis of the deposited data

How the results depend on the processing

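The counts of 0 members in the optimal list and 0 with a q-value of 0.05 or less did not change under any alternative run. These were windows of 2000 or 1000 bp around starts without the gene body, overlap in place of the summit, a q-value of 0.01, the optimal peaks of higher signal alone, the 276 highest peaks of each replicate, and each replicate alone. The narrower windows, the stricter q-value and the higher optimal peaks only take peaks away, so they could not raise a count of 0. Only overlap and the replicate lists could have changed it. The count of members with any pooled peak, 40 as reported, ranged from 31 (1000 bp windows, against 50% of all genes) to 44 over these windows and lists. The median percentile of 53.5 moved to 58.1 with the 1000 bp windows, where all genes have 25. That difference follows from construction, since about as many genes have a peak as have none there and the median falls at the border. With each replicate left out in turn it ranged from 45.8 to 50.1, against 50 over all genes. No paired analysis was possible because there is 1 group and no contrast. A gene set of this size limits what a count of 0 can show.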
